A study of Mus musculus with 12 samples.

Results

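Small nucleolar RNA (snoRNA) host genes are described here by 7 spliced noncoding members: Snhg1, Snhg3, Snhg5, Snhg8, Snhg12, Snhg17 and Gas5. They were taken by symbol from a table of 17718 genes, and they had been selected on their measured difference between Mll3 knock-out and wild-type cells in the libraries described here. Their differences are therefore given as a description, without a test. The cells were CT26, cells of a colorectal carcinoma from a BALB/c mouse, grown in RPMI-1640 with 10% fetal bovine serum. Polyadenylated RNA was sequenced from 3 libraries labelled Mll3 wild-type with no treatment and 3 labelled Mll3 knock-out. Mll3 is the older name of Kmt2c, which encodes a histone H3 lysine 4 methyltransferase acting at enhancers. These 6 libraries are part of a series of 12 samples, of which the CUT&Tag and tumour single-cell samples are not analysed here. The labels do not say whether the knock-out libraries, named sg1, sg2 and sg3 below, come from separate guides, clones or cultures of a single line.

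A snoRNA host gene carries snoRNAs in its introns. When the transcript is spliced the introns are trimmed to mature snoRNAs, which guide methylation (box C/D snoRNAs) or pseudouridylation (box H/ACA snoRNAs) of ribosomal and other RNAs. The spliced exons of the noncoding hosts have little coding capacity, and in several of them, Gas5 and Snhg1 among them, translation of short reading frames exposes the RNA to nonsense-mediated decay. Many host genes begin with a 5′ terminal oligopyrimidine (TOP) tract, an unbroken run of C and T at the start of the transcript that puts translation of the RNA under control of mTOR. The libraries hold polyadenylated RNA, so the member values are of the spliced host RNA and not of the snoRNAs.

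The start regions are shown first because a TOP tract would lie there. Each line gives 50 bases before and 50 bases from the annotated start, read 5′ to 3′ on the gene's strand (RefSeq, GRCm38.p6), and capitals mark the longest run of C and T that begins within 10 bases of the start. Snhg17 and Gas5 have 2 annotated starts each, and the second is printed.
Snhg1 (chr19:8723437-8723536, plus strand): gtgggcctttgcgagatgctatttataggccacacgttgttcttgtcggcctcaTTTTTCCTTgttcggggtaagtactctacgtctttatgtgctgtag
Snhg12 (chr4:132308628-132308727, plus strand): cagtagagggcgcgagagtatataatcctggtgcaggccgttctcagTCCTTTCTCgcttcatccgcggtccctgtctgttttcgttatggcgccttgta
Snhg5 (chr9:88522848-88522947, minus strand): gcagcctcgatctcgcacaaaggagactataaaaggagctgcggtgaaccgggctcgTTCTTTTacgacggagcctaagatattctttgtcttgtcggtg
Snhg8 (chr3:123508287-123508386, minus strand): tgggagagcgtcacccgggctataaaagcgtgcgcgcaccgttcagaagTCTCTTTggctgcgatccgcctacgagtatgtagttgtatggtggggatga
Snhg17 second start (chr2:158361460-158361559, minus strand): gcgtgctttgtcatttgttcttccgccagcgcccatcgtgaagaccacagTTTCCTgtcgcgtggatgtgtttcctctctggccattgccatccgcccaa
Gas5 second start (chr1:161035116-161035215, plus strand): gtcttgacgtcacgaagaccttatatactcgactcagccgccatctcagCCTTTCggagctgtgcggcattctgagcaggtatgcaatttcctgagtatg
Snhg3 (chr4:132353637-132353736, minus strand): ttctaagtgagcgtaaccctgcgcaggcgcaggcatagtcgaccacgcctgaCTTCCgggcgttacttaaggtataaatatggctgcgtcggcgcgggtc

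All 7 symbols matched RefSeq start regions, 9 windows in all. The run was 9 bases long in Snhg1 and Snhg12, 7 in Snhg5 and Snhg8, 6 at the second starts of Snhg17 and Gas5, and 5 in Snhg3. At the first starts of Snhg17 and Gas5 it was 3. A run of at least 5 bases was present in 7 of 9 member windows, against 36.7% of 32851 RefSeq start windows, and a run of at least 7 in 4 of 9, against 13.9%. The other noncoding hosts listed further on had a run of at least 5 in 10 of 18 windows and of at least 7 in 7 of 18. In the protein-coding hosts listed further on the numbers were 13 of 34 (38.2%) and 6 of 34 (17.6%), near the shares of all windows. These 34 windows cover 33 of the 46 genes on that list, and the rest had no window. The palindrome CACGTG, the E-box letters bound by MYC with MAX, was in 0 of the 9 member windows of 300 bases (250 before to 50 after the start) and in 7.15% of all windows. TATAAA on either strand was in 4 of 9 member windows (Snhg1, Snhg3, Snhg5 and Snhg8) and in 13.6% of all windows. On the gene's strand it began at position -23 in Snhg5, at -30 in Snhg8 and at 23, after the start, in Snhg3. In Snhg1 it was on the other strand only. These matches are of letters only, the run length and motifs were chosen after the sequences were seen, and a start annotated a few bases off would change the run.

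Library totals ran from 9559658 to 13406013 counts, so 1 count was worth 0.0746 to 0.105 CPM, the unit of counts scaled to a fixed library total (the CPM below also carry TMM factors). Kmt2c was at 25.4 ± 0.722 CPM in wild-type and 13.97 ± 2.50 CPM in knock-out libraries (SD, n = 3), or -0.87 on the log2 scale (SE 0.129, adjusted p = 4.33e-08), and no library lay on the wrong side of its label. The marker check of the cell type was mixed. Of 8 epithelial markers 3 were tested (Krt8, Krt18 and Krt20) and all 3 rose, with the summed level of the list at 53.0 to 55.5 CPM in wild-type and 161 to 174 CPM in knock-out libraries. Krt8 had 1, 1 and 2 counts in wild-type and 16, 37 and 25 in knock-out libraries. It passed the filter on low counts only through the knock-out libraries, so nothing is read from its rise. Epcam, Cdh1 and Krt19 were not among the measured genes. Of 8 fibroblast markers 5 of the 6 tested rose, with sums of 1038 to 1055 and 1539 to 1575 CPM, most of it Col1a2. Sums of the immune markers were 14.4 to 17.3 and 13.9 to 18.4 CPM with Ptprc under 0.4 CPM in every library. Of the 2 immune markers tested, Lyz2 had means of 0.553 and 8.80 CPM and Csf1r fell from 15.2 to 6.72 CPM. Lyz2, with 2 to 8 counts in the wild-type libraries, also passed the filter only through the knock-out libraries. Sums of the endothelial markers were 0.471 to 1.94 and 1.96 to 3.11 CPM, the nearest of these closer than 1 count is worth. Pecam1, the 1 endothelial marker tested, had 3, 3 and 10 counts in wild-type and 19, 30 and 22 in knock-out libraries. It too would not have passed the filter without the knock-out libraries, so nothing is read from the endothelial sums. The epithelial and fibroblast sums were thus higher in the knock-out libraries, and the immune sums overlapped. The part of these lists in the host gene values was not tested. In a bulk library, fewer cells that express a gene and less of its RNA per cell cannot be told apart.

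Of the 13013 genes tested, 66.2% differed between knock-out and wild-type at an adjusted p under 0.05 (edgeR's quasi-likelihood test, Benjamini-Hochberg), with 33.2% lower and 33.1% higher, and the 2 groups did not overlap for 68.7%. Being called, or not overlapping, was thus the usual state of a gene in this comparison. The labels do not tell whether the 3 libraries of a group are separate cultures, and the p-values then cover no more than library-to-library spread, part of which can be technical. All 7 members passed the filter on low counts, 6 were lower and 1 higher in the knock-out, and none had overlapping groups. These counts follow from the way the genes were selected, and nothing is read from them. What the data add is the size of each difference, its spread and the genes around it.

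Snhg1 (ENSMUSG00000108414, chr19:8723487-8726326 on GRCm38) is a host of box C/D snoRNAs; 8 RefSeq snoRNA genes, Snord22 among them, lie in its span. Its level was 352.8, 320.9 and 344.1 CPM in the wild-type libraries and 100.1, 84.7 and 95.3 CPM in the knock-out libraries. The 2 groups lay far apart, with the highest knock-out library at 100.1 and the lowest wild-type library at 320.9 CPM. The means were 339 ± 16.5 and 93.4 ± 7.92 CPM (SD, n = 3), a log2 fold change of -1.86 (SE 0.0499), or 3.64-fold lower. Of all tested genes 1.01% had a lower log2 fold change.

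Gas5 (growth arrest specific 5, ENSMUSG00000053332, chr1:161034601-161038539) hosts box C/D snoRNAs, with 8 RefSeq snoRNA genes in its span, and its spliced RNA is known as a decoy for the glucocorticoid receptor that accumulates when growth stops. It was at 287.0, 274.2 and 274.0 CPM in wild-type and 125.4, 136.3 and 133.6 CPM in knock-out libraries. The lowest wild-type library, at 274.0 CPM, was far above the highest knock-out library. The log2 fold change was -1.08 (SE 0.0453), or 2.11-fold lower. The RefSeq span of Gas5 overlaps that of Zbtb37, and whether the reads were counted by strand is not given in the sources used here, so the assignment of reads in the overlapping parts is uncertain. Zbtb37 went the other way and rose by 0.42 on the log2 scale (adjusted p = 0.00758). Its call was lost without wild-type library 2 or knock-out library sg1 (adjusted p = 0.0608 and 0.0751).

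Snhg5 (ENSMUSG00000097195, chr9:88521052-88522897) holds 2 RefSeq snoRNA genes. Its 3 wild-type libraries were at 89.0, 82.1 and 76.6 CPM and its 3 knock-out libraries at 35.3, 33.5 and 35.5 CPM. The knock-out values were tighter (SD 1.12 CPM) than the wild-type values (SD 6.25 CPM), with a log2 fold change of -1.25 (SE 0.0754), or 2.38-fold lower.

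Snhg17 (ENSMUSG00000085385, chr2:158353700-158361522) has the longest span of the 7 genes, 7823 bases, with 2 RefSeq snoRNA genes in it. Wild-type libraries were at 128.5, 129.4 and 108.1 CPM and knock-out libraries at 51.0, 54.5 and 50.1 CPM. Wild-type library 3 was lower than the other wild-type libraries but still well above every knock-out library. The log2 fold change was -1.24 (SE 0.0659), or 2.36-fold lower.

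Snhg8 (ENSMUSG00000104960, chr3:123507552-123508336) is the shortest, at 785 bases, and holds Snora24, a box H/ACA snoRNA. It was at 67.9, 61.4 and 68.1 CPM in wild-type and 36.6, 41.4 and 43.9 CPM in knock-out libraries. The groups were separate, with the smallest gap of the 6 lower genes in fold terms: the log2 fold change was -0.70 (SE 0.0784), or 1.62-fold lower, and 11.4% of all tested genes had a lower value.

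Snhg12 (ENSMUSG00000086290, chr4:132308678-132311024) holds Snora16a, Snora44, Snora61 and Snord99. It was at 70.3, 67.0 and 68.8 CPM in wild-type and 23.8, 26.6 and 26.5 CPM in knock-out libraries. The SD was 1.66 and 1.59 CPM in the 2 groups, and the log2 fold change was -1.42 (SE 0.0825), or 2.68-fold lower.

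Snhg3 (ENSMUSG00000085241, chr4:132351933-132353686) hosts the Snora73 pair, Snora73a and Snora73b, which are known as U17 or E1 snoRNAs and take part in processing of the ribosomal RNA precursor. It was the member with the fewest counts, 63, 44 and 51 in wild-type and 156, 188 and 149 in knock-out libraries, or 4.95, 4.49 and 5.50 CPM against 15.3, 16.3 and 14.3 CPM. Every knock-out library was above every wild-type library. The log2 fold change was 1.62 (SE 0.176), or 3.07-fold higher, and 95.6% of all tested genes had a lower value. Snora73b, which is counted as a gene of its own inside Snhg3, had 7, 4 and 7 counts in wild-type and 27, 14 and 18 in knock-out libraries, or means of 0.571 and 1.86 CPM. How reads were divided between the overlapping pair is not given in the sources used here, so neither value is independent of the other.

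**Figure D1:**
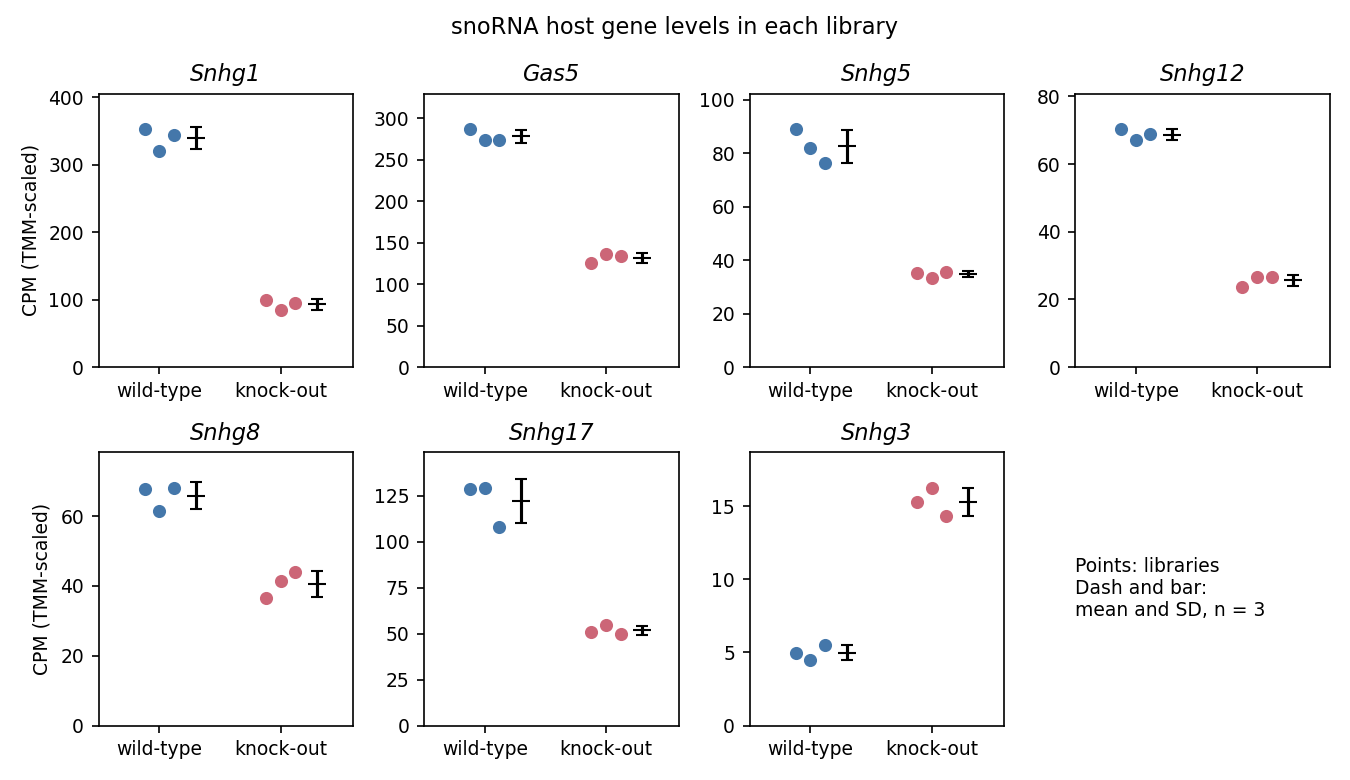
Level of each of the 7 host genes in CPM (y axis, from 0, its own scale in each panel) in the 3 wild-type and 3 knock-out libraries (points), with the mean and SD at the right of each group (n = 3). In every panel the groups are separate; Snhg1 is 339 against 93.4 CPM and Snhg3, alone in the other direction, 4.98 against 15.3 CPM.

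The members' counts made up 0.0950%, 0.0896% and 0.0917% of all counts in the wild-type libraries and 0.0405%, 0.0408% and 0.0415% in the knock-out libraries. The coefficient of variation between libraries of a group ran from 2.42% (Snhg12) to 10.2% (Snhg3) in wild-type and from 3.21% (Snhg5) to 9.14% (Snhg8) in knock-out libraries. No library was the extreme for all members: wild-type library 1 was the highest of its group for 4 of 7 genes and knock-out library sg2 of its group for 4 of 7. In order of log2 fold change the 6 lower genes ran Snhg1, Snhg12, Snhg5, Snhg17, Gas5 and Snhg8. Snhg5 and Snhg17 differed by less than either SE, and every other step in this order was larger than the SEs on both sides. The 7 genes' median log2 fold change was -1.24, beside 0.02 for all genes tested. Transcript lengths were not used, so levels are not compared between genes.

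Other noncoding hosts were read from a list of 18 such genes outside the 7, of which 13 were in the table and 10 were tested. Of the 10, 7 fell, 0 rose and 3 did not pass the test, with a median log2 fold change of -0.54. Among all genes tested 33.2% fell and 33.1% rose. Zfas1, host of a Snord12 family on the antisense side of Znfx1, fell by 1.18 on the log2 scale (SE 0.0526, adjusted p = 2.37e-27, 224 ± 9.06 to 98.8 ± 9.40 CPM, SD, n = 3). The gene named Snhg16 in RefSeq's synonyms (1810032O08Rik) fell by 1.19 (SE 0.117, adjusted p = 2.64e-13) and 2410006H16Rik, which holds 3 box C/D snoRNAs, by 1.17 (SE 0.0590, adjusted p = 6.16e-25). Smaller falls were measured for 1110038B12Rik (-0.66, adjusted p = 2.60e-17), Snhg15 (-0.65, adjusted p = 3.88e-07) and Snhg14 (-0.44, adjusted p = 1.32e-06), the last a long transcript of the imprinted Snrpn domain. Snhg6 (-0.26, adjusted p = 0.0341) lost its call without wild-type library 1 or 2 or knock-out library sg2 or sg3, and its adjusted p ranged from 0.00356 to 0.437 over 14 alternatives. Epb41l4aos was at 0.21 (adjusted p = 0.223), and Snhg18 and Snhg20, named after their values were seen because they complete the list, were at -0.03 (adjusted p = 0.861) and 0.28 (adjusted p = 0.295). Snhg9, Snhg11 and Dancr had too few counts to be tested.

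**Figure D2:**
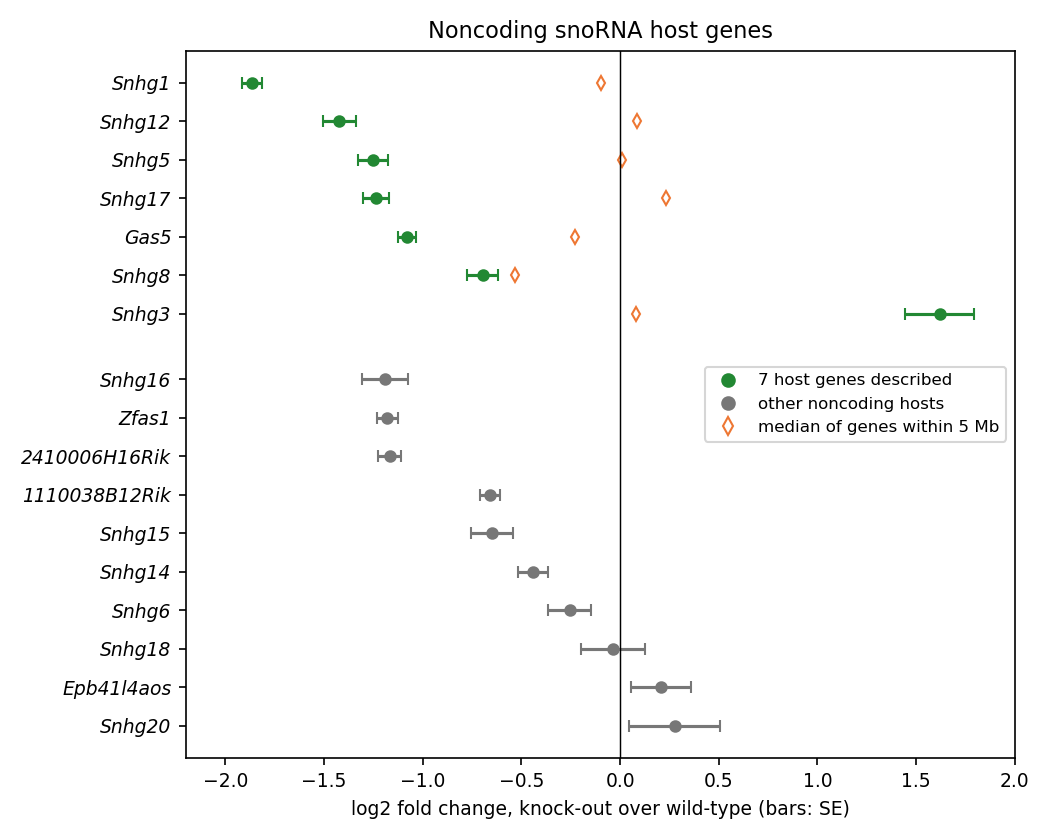
Log2 fold change, knock-out over wild-type (x axis, bars are SE), of the 7 host genes (green) and of 10 other noncoding snoRNA hosts (grey), with the median of the genes within 5 Mb of each of the 7 as an open diamond. Snhg8 at -0.70 lies near its local median of -0.53, and the other 6 lie away from theirs.

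A second reading used annotation in place of a chosen list, and was added after the values were seen: RefSeq noncoding genes whose span holds a snoRNA gene. Spans were matched by coordinates alone, without regard to strand or intron, so such a gene need not be a host. Leaving the 7 out, 21 such genes were tested, of which 8 fell, 3 rose and 10 did not pass the test, with a median log2 fold change of 0.17. This reading is not separate from the chosen list. Of the 8 that fell, all but Gm17344 were on that list already, and none of the 3 that rose was. Each of the 3 that rose holds 1 snoRNA gene without a Snord or Snora name, as does Snhg15 among those that fell. Of 648 RefSeq noncoding genes without a snoRNA in their span, 17.6% fell and 30.7% rose, with a median of 0.18. Among the 21, 38.1% fell, beside 33.2% of all genes tested. A list of 17 well-known long noncoding RNAs that host no snoRNA gave 13 tested genes, of which 2 fell and 3 rose (median 0.16). In it Tug1 fell by 0.76 (adjusted p = 5.41e-18) and Mir22hg rose by 0.96 (adjusted p = 6.81e-05), while the nuclear RNA Malat1 was at 0.23 (adjusted p = 0.0350, a call lost without wild-type library 3 or any of the knock-out libraries).

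Protein-coding genes also carry snoRNAs, genes of ribosomal proteins, translation factors and nucleolar proteins among them. Of a chosen list of 46 of these kinds, all tested, 38 fell, 5 rose and 3 did not pass the test, with a median of -0.27. The shares over all genes tested were 33.2% lower and 33.1% higher. By annotated span the share was smaller: of 276 RefSeq protein-coding genes whose span holds a snoRNA gene, 139 fell (50.4%) and 63 rose (22.8%), with a median of -0.17. This match, too, was by coordinates alone and took in spans as long as that of Robo2 (1555468 bases). Not all of the 276 need be hosts. Of the 29 ribosomal protein genes among the 276, 24 fell and 2 rose, and of the other 247 genes 115 fell and 61 rose. In the chosen list, Nop58 and Nop56, core proteins of box C/D snoRNPs that themselves host snoRNAs, fell by 1.04 (SE 0.0356, adjusted p = 9.20e-33, mean 796 to 388 CPM) and by 0.92 (SE 0.0403, adjusted p = 6.53e-26, mean 671 to 354 CPM). Rpl17 (-0.91), Tnpo2, a nuclear import receptor (-1.03), and Hspa9, the mitochondrial HSP70 (-0.68), fell as well. Hspa8, the constitutive cytosolic HSP70, rose by 1.52 (SE 0.0331, adjusted p = 2.44e-42, mean 660 to 1897 CPM), the largest rise of the list. Eef2 (0.13), Tcp1 (0.14), Prpf39 (0.33) and Rps12 (0.30) also rose, the last 3 named after their values were seen. Under upper-quartile scaling, which lifts the median of all genes to 0.17, 25 of the 46 fell and 10 rose.

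Of the 8 proteins of snoRNA particles, 4 fell, 1 rose and 3 did not pass the test, where 33.2% of all genes tested fell and 33.1% rose. Beside Nop58 and Nop56, which are in both lists, Gar1 of box H/ACA particles fell by 0.67 (SE 0.0578, adjusted p = 2.05e-15) and Dkc1, the pseudouridine synthase dyskerin, by 0.16 (adjusted p = 0.000948), a call lost with upper-quartile factors (-0.01, adjusted p = 0.890) or library size alone (-0.04, adjusted p = 0.369). Nhp2 rose by 0.29 (adjusted p = 1.10e-06). Fibrillarin (Fbl, -0.06, adjusted p = 0.238), Snu13 (-0.02, adjusted p = 0.733) and Nop10 (-0.02, adjusted p = 0.812) did not pass the test. The list's median was -0.11 and turned positive with upper-quartile factors (0.05) or no scaling beyond library size (0.01). Of 16 assembly and maturation factors 8 fell and 5 rose (median -0.18): Znhit6 fell by 0.87, the nuclear exonuclease Xrn2 by 0.51, the exosome nuclease Dis3 by 0.51 and the nucleolar chaperone Nolc1 by 0.45, while Rpap3 of the R2TP complex rose by 0.65.

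Since spliced host RNAs are known targets of nonsense-mediated decay, its 22 factors were read as a list: 17 fell, 2 rose and 3 did not pass the test, with a median of -0.32. Beside this list and those that follow stand 33.2% lower and 33.1% higher among all genes tested. The termination factor Etf1 fell by 0.69 (adjusted p = 1.32e-25), Pnrc2 by 0.80, the exon junction protein Rbm8a by 0.64, Nbas by 0.88 and Upf3a by 0.66. Upf3b (0.62) and Dhx34 (0.70) rose and the helicase Upf1 was at -0.09 (adjusted p = 0.192), these 3 being named after their values were seen. Of 20 tested regulators of TOP translation and of MYC and its partners, 12 fell and 3 rose (median -0.22). Myc fell by 0.86 (adjusted p = 1.54e-25) from 305 ± 6.70 to 168 ± 2.26 CPM, the cap-binding protein Eif4e by 0.68 and the mTORC1 activator Rheb by 0.60. Larp1, which binds TOP RNAs, fell by 0.27. The MYC antagonists Mxd4 and Mnt rose by 1.18 and 0.95. Because Gas5 RNA is a known decoy of the glucocorticoid receptor, the receptor and its targets were read too: of 9 tested, 4 fell and 3 rose, with the receptor gene Nr3c1 at -0.35, Klf9 at -0.998 and Tsc22d3 at -0.77 lower, and Sgk1 at 1.20 and Fkbp5 at 0.85 higher. Their median was -0.08 and turned positive with upper-quartile factors (0.08) or no scaling beyond library size (0.04).

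**Figure D3:**
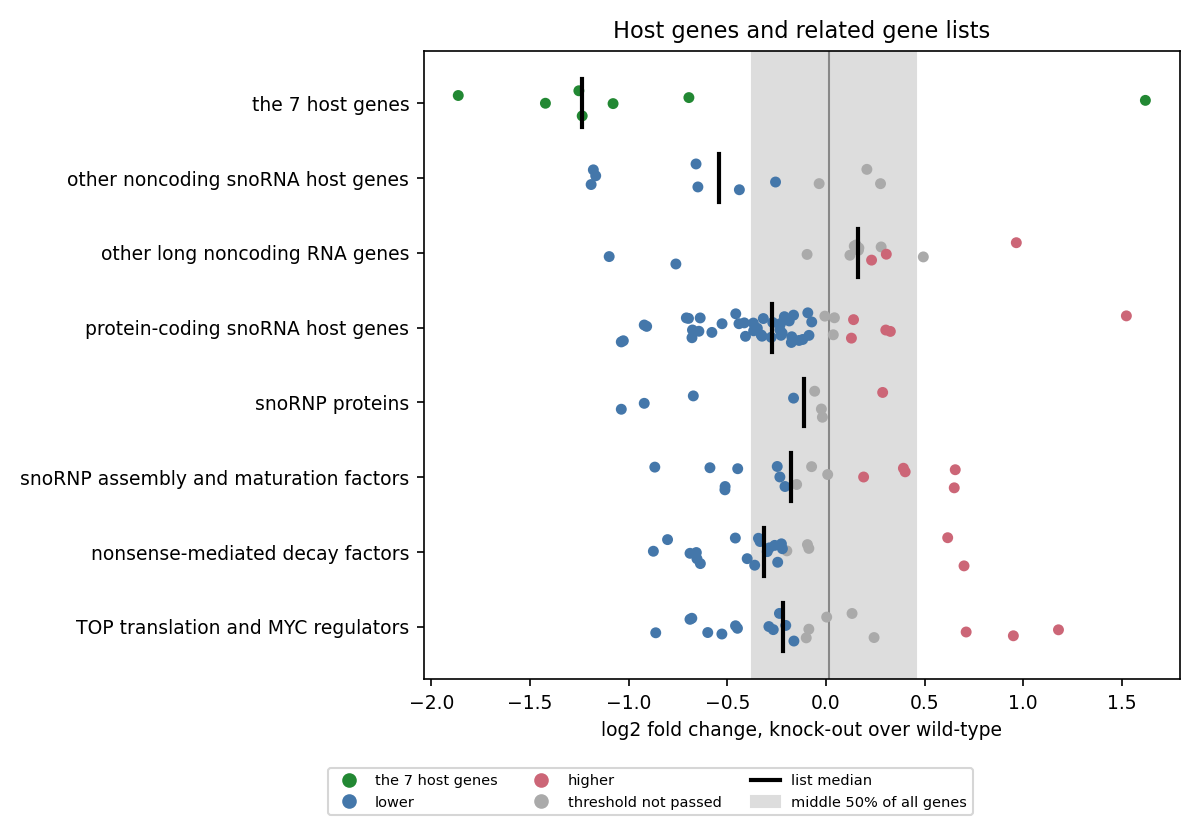
Log2 fold change, knock-out over wild-type (x axis), of each tested gene (point, with vertical scatter only for display) in 8 lists; black bars are list medians and the grey band holds the middle 50% of all 13013 genes. The 7 host genes have a median of -1.24, the other noncoding hosts -0.54 and the protein-coding hosts -0.27, and genes of the 7 have no test shown.

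The surroundings of each member were read from the genes within 5 Mb. For Snhg1 (182 genes, median -0.10), Snhg5 (27 genes, 0.01), Snhg12 (117 genes, 0.09), Snhg3 (118 genes, 0.08), Snhg17 (89 genes, 0.23) and Gas5 (60 genes, -0.23) the local median was far from the member's own value. Around Snhg8 it was not: 22 of 32 genes fell and 1 rose, with a median of -0.53, so that Snhg8 lay 0.16 below its surroundings on the log2 scale. Its neighbours were Prss12, 950 bases away (-0.30, adjusted p = 0.168), and Ndst3, 17830 bases away, which fell by 1.78 (adjusted p = 1.32e-18). With the local median taken off, Snhg1 was at -1.77, Snhg12 at -1.51, Snhg17 at -1.47, Snhg5 at -1.26, Gas5 at -0.85 and Snhg3 at 1.54.

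Among the nearest tested neighbours, some moved as the member did and some did not. Each lower member but Snhg12 had a neighbour that was called lower too, for Gas5 Cenpl (-0.53, adjusted p = 3.82e-05). Slc3a2, the heavy chain of a family of amino acid transporters, lies 118 bases from Snhg1 and fell by 1.06 (SE 0.0389, adjusted p = 2.45e-31) from 504 ± 11.1 to 242 ± 7.73 CPM, a smaller difference than that of Snhg1. Stx5a on the other side was at -0.31 (adjusted p = 0.00149), a call lost with upper-quartile factors (adjusted p = 0.117) or library size alone (adjusted p = 0.0515). Syncrip, near Snhg5, was at 0.01 (adjusted p = 0.844), whereas Zfp949 on its other side fell by 0.95. Near Snhg17, Ralgapb fell by 0.57 (adjusted p = 1.04e-15), and Lbp had 2, 3 and 0 counts in wild-type and 16, 31 and 30 in knock-out libraries. Over 17 neighbours, 8 fell and 4 rose (median -0.19), beside 33.2% and 33.1% of all genes tested. Lbp and Snora73b, among the 4 that rose, passed the filter only through the knock-out libraries.

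Snhg12 and Snhg3 lie 40908 bases apart on chromosome 4 with Trnau1ap and Rcc1 between them, and went opposite ways. The ratio of Snhg12 to Snhg3 counts was 14.2, 14.9 and 12.5 in the wild-type libraries and 1.56, 1.63 and 1.85 in the knock-out libraries. This ratio is taken within a library and does not depend on its scaling. Trnau1ap, 739 bases from Snhg12, was at 0.19 (adjusted p = 0.114), and passed the test without knock-out library sg3 (0.28, adjusted p = 0.0385). It also passed with upper-quartile factors (0.35, adjusted p = 0.00459) or library size alone (0.32, adjusted p = 0.00995). Rcc1, the nucleotide exchange factor of Ran, is on the chosen list of protein-coding hosts, although its RefSeq span holds no snoRNA gene. It was at -0.22 (adjusted p = 0.00102), a call lost with upper-quartile factors (adjusted p = 0.336) or library size alone (adjusted p = 0.130). Phactr4, on the far side of Snhg3, was at -0.19 (adjusted p = 0.0458), a call lost without wild-type library 2 or 3 or knock-out library sg3. The Phactr4 call was also lost with upper-quartile factors (adjusted p = 0.781), library size alone (adjusted p = 0.507) or DESeq2 (adjusted p = 0.076). The filter at 5 CPM in 3 libraries and the threshold of 0.01 removed it as well. Taf12, on the far side of Snhg12, was at 0.10 (adjusted p = 0.363). It passed the test with upper-quartile factors (0.25, adjusted p = 0.014) or library size alone (0.22, adjusted p = 0.0339).

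**Figure D4:**
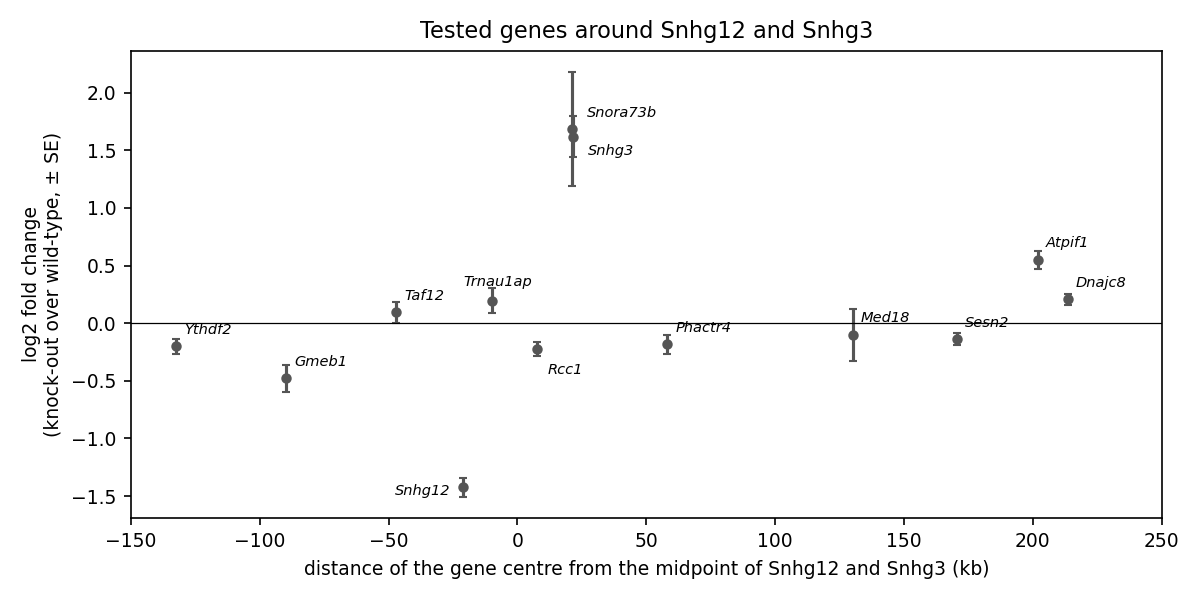
Log2 fold change, knock-out over wild-type (y axis, bars are SE), of tested genes within 250 kb of the midpoint between Snhg12 and Snhg3 (x axis, distance of the gene's centre in kb; no tested gene of the window lies beyond the left end of the axis). Snhg12 at -1.42 and Snhg3 at 1.62 stand away from their neighbours Trnau1ap at 0.19 and Rcc1 at -0.22.

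Mature snoRNAs are too short and lack the poly(A) tail that these libraries select, so the 43 snoRNA genes of the table do not measure them. Only 7 passed the filter on low counts. The 3 that were called were higher in the knock-out and were named after their values were seen: Snord104 (1.25, adjusted p = 0.00452), Snord19 and Snora73b. Snord19 (5, 7 and 8 counts in wild-type, 24, 21 and 11 in knock-out libraries) and Snora73b were under the minimum of 10 counts in every wild-type library and passed the filter only through the knock-out libraries, so nothing is read from their calls or from the balance of directions. The number of such calls ran from 1 to 5 when each library was left out in turn, 1 without knock-out library sg1 and 5 without wild-type library 2. Of the tested snoRNA genes only Snora73b lies in a member's span.

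Among the genes whose log2 CPM was most like the mean of the 7 over the 6 libraries, of 9865 genes with an average log2 CPM of at least 3, were Klf6 (Pearson r = 0.99978), Ptpn12 (0.99942), Dcbld2 (0.9994) and Map4k4 (0.99925). With 2 groups that differ, this likeness follows the group means, and 741 genes (7.51%) had r above 0.99. Klf6 was at 544 ± 24.0 CPM in wild-type and 200.2 ± 7.90 CPM in knock-out libraries, a log2 fold change of -1.44.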

How the data were processed

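RNA-seq of 6 CT26 libraries was used. The deposited values are whole-number counts per Ensembl gene, made by the authors; per the labels' protocols, directional libraries of polyadenylated RNA were prepared with NEBNext Ultra II and carry the same date of batch. The submitters' processing notes list fastp, STAR, HTSeq and the build mm10. No source used here gives their versions, the annotation release or the use of strand in counting. Symbols were found for 17650 of 17718 identifiers. RefSeq positions (GRCm38.p6, the assembly of mm10) were found for 12078 tested genes. Wild-type columns were matched by number; knock-out columns were assigned to their group only.

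Genes were kept with filterByExpr (minimum count 10, minimum total 15), scaled by TMM and fitted with edgeR 4.0.16 (R 4.3.3; quasi-likelihood, robust) on all 13013 genes, with Benjamini-Hochberg adjustment and a threshold of 0.05. SE is the log2 fold change over the square root of F. CPM use TMM-scaled totals. The fit was run on simulated counts in which only a small part of the genes was changed. Such a run does not check the scaling where most genes differ, as they do here. Alternatives were DESeq2 1.42.0, limma 3.58.1 (voom), other scalings and filters, a threshold of 0.01, each library left out, and the chromosome or 5 Mb median taken off.

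The members and lists were chosen with earlier results of these data known. Named were all members; of each list the 6 genes with the smallest p and the 2 with the largest average count; Kmt2c; the nearest tested neighbours; and the 5 genes most like the members. A few genes that this rule names are not reported here. The depth of each library limits precision for low genes such as Snhg3.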

Additional observations from a re-analysis of the deposited data

How the results depend on the processing

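Each of the 7 host genes kept its direction in 15 of 15 alternatives. Snhg8 had the widest relative range, -0.76 to -0.16, its smallest value being that with the 5 Mb median taken off. Upper-quartile scaling moved the median of all genes from 0.02 to 0.17 and library size alone to 0.14, and the share of calls that were higher went from 49.9% to 63.7% and 60.5%. No paired analysis was possible because the knock-out columns carry no replicate number from the labels.

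Under upper-quartile scaling the members' median was -1.08 (-1.24 in the analysis as reported); of the other noncoding hosts 1 rose (0 as reported); of the protein-coding hosts 25 fell and 10 rose (38 and 5); 3 snoRNP proteins rose (1); 5 assembly factors fell (8); 6 TOP and MYC regulators rose (3); 9 of the other long noncoding RNAs were called and 7 rose (5 and 3); and 5 neighbours fell and 7 rose (8 and 4). Fbl turned to 0.10 and Snu13 to 0.14. With library size alone the members' median was -1.11, 2 snoRNP proteins rose, 5 TOP and MYC regulators rose, 5 other long noncoding RNAs rose, 5 neighbours fell and 7 rose, and Snu13 turned to 0.10. These shifts follow the scaling factor, which moves every gene alike.

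Without a filter 5 snoRNA genes were called, all 5 higher; with the filter at 5 CPM in 3 libraries fewer genes were tested, and 0 snoRNA genes were called (0 higher), 5 TOP and MYC regulators rose, 1 other long noncoding RNA fell (2 as reported) and 2 neighbours rose. At a threshold of 0.01, 3 assembly factors rose (5 as reported). With each library left out in turn, the members' median ran from -1.31 to -1.19, other long noncoding RNAs that rose from 2 to 5 (5 without wild-type library 1), assembly factors that rose from 3 to 5 (3 without knock-out library sg1), snoRNA genes called from 1 to 5, higher from 1 to 5 and lower from 0 to 1 (1 without wild-type library 3). The cause of these changes was not tested.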
